A study of Mus musculus with 6 samples.

Results

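A set of 10 core genes of the mammalian circadian clock were examined in RNAseq libraries from mouse hippocampi: Per1, Per2, Per3, Dbp, Tef, Arntl, Nr1d1, Nr1d2, Ciart and Bhlhe41. The members were given by name and are 10 of the 54838 genes in the table of counts. The libraries came from the hippocampi of 3 wild-type and 3 FVB/NJ-Tg(Orai1)Ibd mice. All 6 mice were females aged 7 months, with 1 library for each mouse. The transgenic mice are on the FVB/NJ background and carry the cDNA of human ORAI1, the pore subunit of the store-operated calcium channel, in the Thy1.2 cassette, which drives expression mainly in neurons. The mice were kept on a cycle of 12 h of light and 12 h of dark. The clock hour at which each hippocampus was taken is not given in the sources used here, so a difference in collection time and a difference in genotype cannot be told apart in these libraries.

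The circadian clock is a feedback loop of transcription. ARNTL (BMAL1) pairs with CLOCK or NPAS2 and switches on genes that carry E-boxes, among them the Per and Cry genes, Ciart, Dbp, Tef, Nr1d1, Nr1d2 and Bhlhe41. PER and CRY proteins return to the nucleus and block the activator. NR1D1 and NR1D2 (REV-ERB) repress Arntl through ROR elements, and DBP, TEF and HLF activate genes through D-boxes, where NFIL3 represses. Outside the suprachiasmatic nucleus, the loop also runs in cells of the hippocampus, and the mRNA of most of its members goes through a daily rise and fall.

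The elements through which the members act on each other stand in several of their own promoters, and the sequences below show where. RefSeq promoter windows of the GRCm38.p6 build (250 bases before to 50 bases after a start site) were given for 9 of the 10 members, Per2 not among them, and both strands of each window were searched for the letters of each element. The searched elements were the E-box CACGTG, the E'-box CACGTT, the D-box TTATGTAA or TTACGTAA, the ROR element and the cAMP response element TGACGTCA. The E-box occurred in 7.15% of 32851 mouse promoter windows, the E'-box in 4.68%, the D-box in 1.06%, the ROR element in 0.384% and the cAMP response element in 1.79%. The windows that held one are printed 5′ to 3′ on the strand of the gene, with the element in capitals. Ciart held 3 E-boxes, which begin 116, 58 and 44 bases before its start, in chr3:95882328-95882355 and chr3:95882256-95882297 on the minus strand.
Ciart, first E-box: gcatctagagtCACGTGttgccggtaag
Ciart, other E-boxes: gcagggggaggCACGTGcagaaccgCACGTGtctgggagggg

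Single E-boxes stood 166 bases before a start of Per1 (chr11:69098772-69098799, plus strand), 153 bases before the start of Bhlhe41 (chr6:145865557-145865584, minus strand), and 127 and 138 bases before the first and second starts of Tef (chr15:81802535-81802562 and chr15:81811265-81811292, plus strand). An E'-box, read here from its other strand, lay 28 bases before the start of Nr1d1 (chr11:98775389-98775416, minus strand).
Per1, E-box: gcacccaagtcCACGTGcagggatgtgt
Bhlhe41, E-box: ggtacgttccgCACGTGagctgggtgct
Tef, E-box of the first start: tgctgtggctcCACGTGctgcagctggc
Tef, E-box of the second start: acctggcccagCACGTGtctacatcgtt
Nr1d1, E'-box: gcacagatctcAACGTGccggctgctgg

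Per3 held a pair of D-boxes, 205 and 158 bases before its start (chr4:151044852-151044881 and chr4:151044805-151044834, minus strand). The promoter of Arntl held the ROR element 27 bases after its second start (chr7:113207528-113207556, plus strand). The windows of Dbp and Nr1d2 held none of these letters, which says only that they are not within these 300 bases. A match of letters is a description and does not show that a factor binds there.
Per3, first D-box: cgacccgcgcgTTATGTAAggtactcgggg
Per3, second D-box: cccgcccgcggTTATGTAAcccccgccgtg
Arntl, ROR element: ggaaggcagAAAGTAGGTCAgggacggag

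Between 37414241 and 52497799 fragments were counted on genes in a library, and the scaling factors of the 6 libraries lay between 0.9924 and 1.005. The labels were checked by the gene of the transgene: 376, 302 and 306 fragments were counted on Orai1 in the wild-type libraries, against 14620, 12634 and 11834 in the transgenic libraries. Thy1, whose promoter drives the transgene, stood at 639.6 ± 31.0 CPM (counts relative to the TMM-scaled library total, SD, n = 3) in wild-type and 4037.1 ± 414.9 CPM in transgenic libraries. The hippocampal neuron markers Prox1, Wfs1, Spink8, Fibcd1, Neurod6 and Neurod2 were detected in both genotypes, with summed levels of 654.8 to 681.0 CPM in wild-type and 671.6 to 771.8 CPM in transgenic mice. Of the 6, 1 passed the test of genotype (16.7%, against 7.10% of all genes). It was Neurod2 (log2 fold change 0.32, edgeR, adjusted p = 0.0239), a call that was lost with GC offsets (2.12% of all genes called). Markers of the choroid plexus epithelium, a tissue of the ventricle beside the hippocampus, moved with genotype. All 15 of them were lower in transgenic libraries with an adjusted p under 0.05 (edgeR), Kcnj13, Enpp2, Kcne2 and Slc4a5 with the smallest p-values. Their log2 fold changes ranged from -4.35 to -1.61, and their summed level was 3883.9 to 6043.5 CPM in wild-type and 548.3 to 868.6 CPM in transgenic libraries. No marker was at 0 in all libraries of a genotype. In bulk RNA, fewer cells of a type and less RNA for each cell cannot be told apart, and what part the choroid plexus had in any value below was not tested. The log2 fold change between genotypes also went with the GC content of the transcript over 19079 genes (Spearman's rho 0.383, across genes, which are not independent replicates). For this reason the GC content and the value with GC offsets are given beside each clock gene that passed the test.

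Of the 10 clock genes, 2 passed the test of genotype and both were lower in transgenic hippocampi: Dbp, which fell by 29.4%, and Nr1d2, which fell by 24.2%. All 10 passed the filter on low counts. Over all 19087 genes tested 7.10% had an adjusted p under 0.05 (edgeR's quasi-likelihood test), 764 genes as lower and 591 as higher in the transgenic mice, and with 10 members a share of 2 is set by few genes. At an unadjusted p under 0.05 there were 3 of the 10 (27.8% of all genes), by DESeq2 3 (11.1% of all genes), by limma-voom 2 (6.61% of all genes) and with GC offsets 1 (2.12% of all genes). For 3 members, Dbp, Nr1d2 and Tef, the values of the 3 wild-type and the 3 transgenic libraries did not overlap, a state in which 34.9% of all tested genes were found. The log2 fold change, transgenic over wild-type, was negative for 7 members and positive for 3, with a median of -0.12 beside -0.01 over all genes tested.

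**Figure D1:**
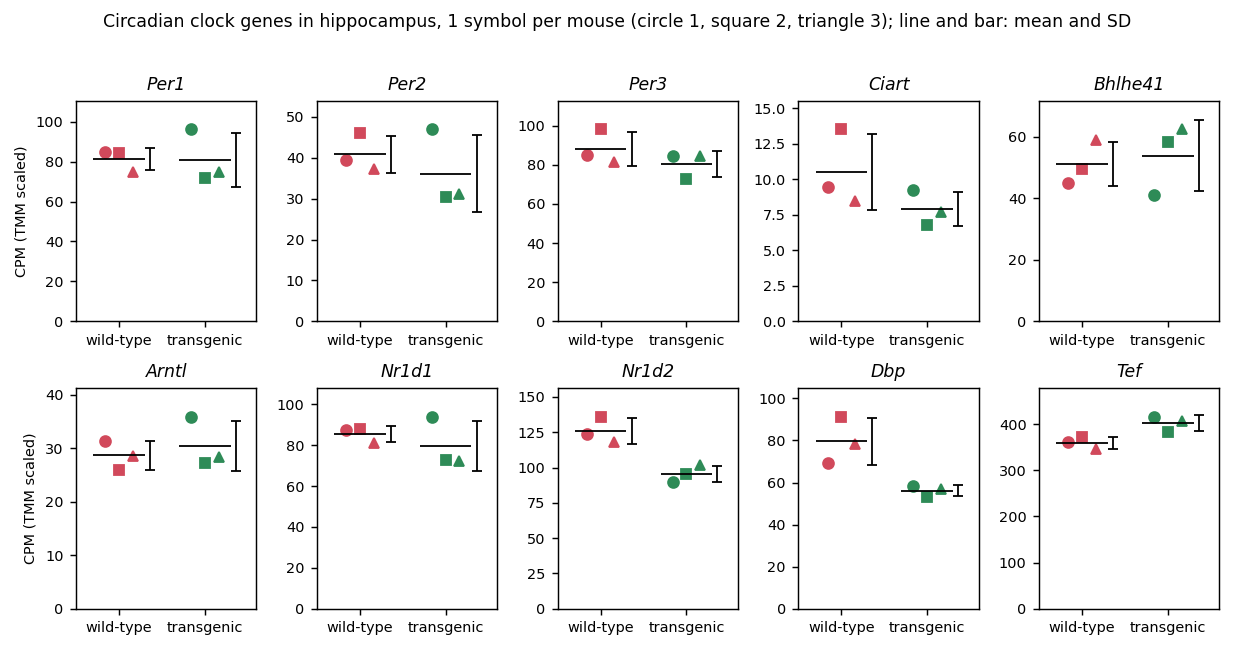
Each panel plots 1 clock gene, with CPM scaled by TMM on the y axis from 0 and the genotype on the x axis. Each symbol is 1 mouse (circle, square and triangle for replicates 1, 2 and 3), and the line and bar give the mean and SD of 3 mice. The transgenic values of Nr1d2 (89.7 to 101.5 CPM) and Dbp (53.3 to 58.4 CPM) lie below all wild-type values, those of Tef lie above, and the groups overlap in the other 7 panels.

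The levels of the members were first ordered in wild-type hippocampi, per length of the gene, in FPKM (CPM divided by the length of the gene in kb, here without TMM scaling, mean ± SD, n = 3). Tef was the highest at 45.7 ± 1.59 FPKM. Next came Nr1d1 at 27.8 ± 1.16, Dbp at 26.6 ± 3.75 and Nr1d2 at 23.3 ± 1.67 FPKM, in which Nr1d1 and Dbp, and Dbp and Nr1d2, overlapped in their ranges. Per1 followed at 14.5 ± 0.957 FPKM, apart from its neighbours on both sides. Per3 at 9.18 ± 0.918, Bhlhe41 at 7.62 ± 1.1 and Per2 at 6.98 ± 0.763 FPKM overlapped from one to the next. Ciart at 4.64 ± 1.18 and Arntl at 3.81 ± 0.349 FPKM were the lowest, and their ranges overlapped.

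The first group holds the repressors of the activator. Per1, whose protein forms the repressor complex with CRY and whose transcription also answers to calcium and cAMP, lies at chr11:69095217-69109960 (GRCm38, plus strand). Its level was 84.8, 84.3 and 74.9 CPM in wild-type mice 1 to 3 and 96.1, 71.6 and 74.7 CPM in transgenic mice 1 to 3. The first transgenic mouse held the highest value of all 6 and the second the lowest, and the means of 81.3 ± 5.61 and 80.8 ± 13.4 CPM lay close together (log2 fold change -0.01, 95% interval -0.27 to 0.25, adjusted p = 0.97). The sign of so small a difference turned with the scaling of the libraries.

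Per2 encodes the PER protein without which the rhythm of mice fades, and lies at chr1:91415982-91459324 (minus strand). It stood at 39.3, 45.9 and 37.3 CPM in wild-type and at 46.9, 30.5 and 31.0 CPM in transgenic mice. Transgenic mice 2 and 3 lay below every wild-type mouse and the first above all of them. The log2 fold change was -0.17 (SE 0.17, 95% interval -0.57 to 0.22, adjusted p = 0.553). Without the first transgenic mouse it was -0.41 with an adjusted p of 0.0485 in edgeR's test, so that 1 library decided on which side of the threshold Per2 stood. Without transgenic mouse 2 or 3, or wild-type mouse 2, it was -0.04, -0.05 and -0.06.

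Per3, the last of the period genes, lies at chr4:151003652-151044665 (minus strand) and had the pair of D-boxes shown above. Its level was 84.8, 98.1 and 81.5 CPM in wild-type and 84.5, 72.8 and 84.3 CPM in transgenic mice. Only the second transgenic mouse left the wild-type range (log2 fold change -0.13, SE 0.0871, 95% interval -0.33 to 0.07, adjusted p = 0.375). It was -0.03 without the second wild-type mouse, -0.04 without the second transgenic mouse and -0.02 with gene length offsets.

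Ciart (CHRONO), a repressor that binds to the ARNTL complex, lies at chr3:95878503-95882251 (minus strand) and is the gene with 3 E-boxes. It had the fewest fragments of the members, 260 to 571 in a library, while each of the others had at least 1042. In wild-type mice it was at 9.48, 13.5 and 8.48 CPM and in transgenic mice at 9.22, 6.81 and 7.69 CPM. The second wild-type mouse was the highest and the first transgenic mouse lay within the wild-type range. The log2 fold change of -0.41 (SE 0.191, 95% interval -0.85 to 0.04) did not pass the test (adjusted p = 0.216). It was -0.16 without the second wild-type mouse (edgeR, adjusted p = 0.595).

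Bhlhe41 (DEC2), which competes with the activator for the E-box, lies at chr6:145858243-145865558 (minus strand). Wild-type mice had 45.0, 49.4 and 59.1 CPM and transgenic mice 41.0, 58.4 and 62.4 CPM. Both the lowest and the highest value were transgenic, and the log2 fold change was 0.08 (SE 0.164, 95% interval -0.31 to 0.46, adjusted p = 0.805).

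The second group is the activator and the nuclear receptors that repress it. Arntl, the activator itself, lies at chr7:113207465-113314126 (plus strand). It stood at 31.4, 26.0 and 28.6 CPM in wild-type and at 35.9, 27.3 and 28.4 CPM in transgenic mice. Transgenic mice 2 and 3 fell inside the wild-type range and the first lay above it. Arntl had a log2 fold change of 0.09 (SE 0.116, 95% interval -0.18 to 0.36, adjusted p = 0.654). It was 0.17 with gene length offsets, 0.14 with GC offsets and -0.04 without the first transgenic mouse.

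Nr1d1 encodes REV-ERB alpha, a heme-binding repressor, and lies at chr11:98767932-98775333 (minus strand). Its 3 wild-type mice stood at 87.2, 88.0 and 81.1 CPM and its transgenic mice at 93.9, 72.7 and 72.1 CPM. As for Per2, the first transgenic mouse was the highest of all 6 and the other two were the lowest. Nr1d1 had a log2 fold change of -0.10 (SE 0.103, 95% interval -0.34 to 0.14, adjusted p = 0.567). With GC offsets it was -0.19 (edgeR's adjusted p = 0.325). Without the first transgenic mouse it was -0.24, with an adjusted p of 0.0434 by edgeR, and without transgenic mouse 2 or 3 it was -0.01 in each fit.

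Nr1d2 encodes REV-ERB beta, the close relative of NR1D1, and lies at chr14:18204054-18239127 (minus strand). It was at 124.0, 136.0 and 118.1 CPM in wild-type and at 89.7, 95.4 and 101.5 CPM in transgenic mice. Every transgenic mouse lay below every wild-type mouse, and the first transgenic mouse, highest for Nr1d1, was here the lowest. Nr1d2 fell from 126.1 ± 9.13 to 95.5 ± 5.88 CPM (log2 fold change -0.40, SE 0.0683, 95% interval -0.56 to -0.24, edgeR's adjusted p = 0.026). Its transcript has a GC content of 41.8%, and the 1346 tested genes within 1 percentage point of it had a median log2 fold change of -0.14. With GC offsets the log2 fold change was -0.26 and the adjusted p 0.0779, so the call was lost. It was also lost in edgeR's fits without the first or second wild-type mouse (adjusted p = 0.113 and 0.106) and without transgenic mouse 2 or 3 (adjusted p = 0.0762 and 0.0721). Over all genes those fits called 77, 94, 192 and 108 genes, against 1355 with all mice.

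The third group holds the PAR bZIP factors, which carry the rhythm to output genes through D-boxes. Dbp, whose mRNA has one of the steepest daily rhythms in mammalian tissues, lies at chr7:45705088-45710203 (plus strand). It was at 69.2, 91.3 and 78.3 CPM in wild-type mice and at 58.4, 53.3 and 56.8 CPM in transgenic mice. All 3 transgenic values lay below the lowest wild-type value and within a narrow range, while the second wild-type mouse stood highest. Dbp fell from 79.6 ± 11.1 to 56.2 ± 2.6 CPM (log2 fold change -0.50, SE 0.0974, 95% interval -0.73 to -0.28, edgeR's adjusted p = 0.032). In contrast to Nr1d2 its transcript is rich in GC (61.6%), and the 402 tested genes of like GC content had a median log2 fold change of 0.14, opposite in sign to that of Dbp. With GC offsets the log2 fold change was -0.63 and the adjusted p 0.0192. The direction held in each fit that left out 1 mouse (log2 fold change -0.58 to -0.38), whereas the adjusted p passed the threshold only without the first transgenic mouse (0.0431). It was 0.0578, 0.113 and 0.0553 without wild-type mouse 1, 2 or 3, and 0.0954 and 0.104 without transgenic mouse 2 or 3. Dbp shares 539 bp of exon with Sphk2 on the opposite strand. The counting kept the strand.

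Tef, the thyrotroph embryonic factor, lies at chr15:81802421-81826863 (plus strand) and was the most abundant member. It stood at 360.9, 371.1 and 345.2 CPM in wild-type and at 416.2, 383.0 and 406.1 CPM in transgenic mice. Here every transgenic mouse lay above every wild-type mouse, the opposite order to Dbp, although both genes belong to one family. The log2 fold change was 0.16 (SE 0.0522, 95% interval 0.04 to 0.28) and missed the threshold in edgeR's test (adjusted p = 0.0969), while DESeq2's adjusted p was 0.0483. With GC offsets it was 0.12 and with gene length offsets 0.24 (edgeR's adjusted p = 0.257 and 0.0625). The adjusted p in edgeR's test was 0.14 with the replicate block and 0.104 to 0.247 when 1 mouse was left out.

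**Figure D2:**
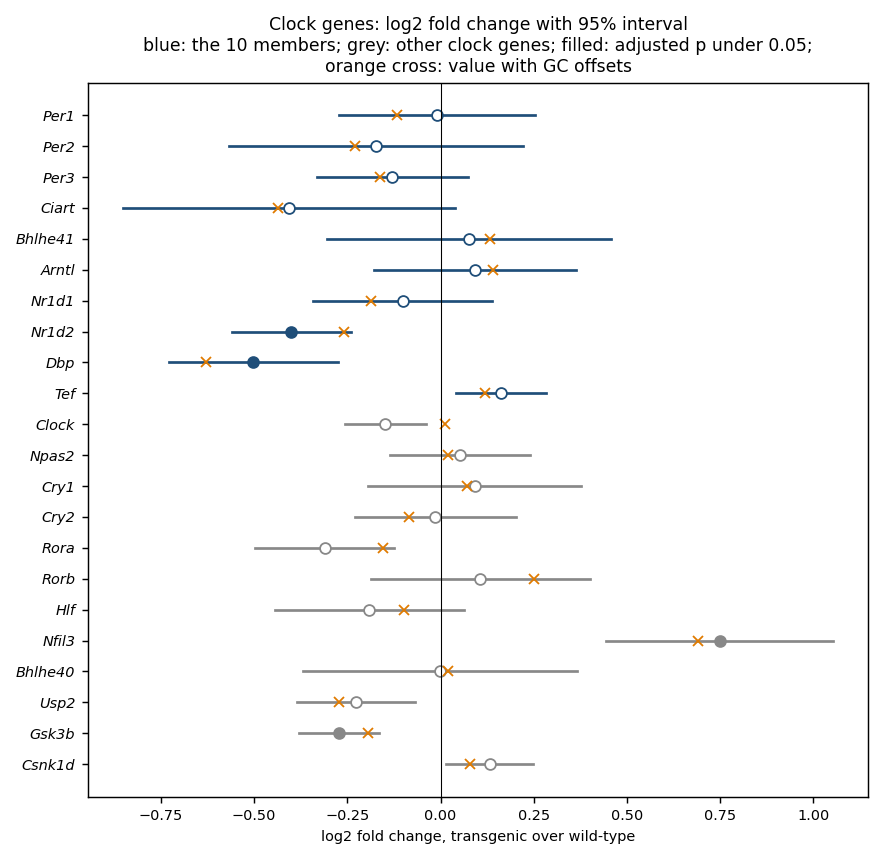
The x axis gives the log2 fold change, transgenic over wild-type, of the 10 members (blue) and 12 other clock genes (grey). Circles are edgeR's estimates with 95% intervals, filled where the adjusted p was under 0.05, and crosses are the values with GC offsets. Among the members Dbp (-0.50) and Nr1d2 (-0.40) are filled, and the cross of Dbp lies further from 0 than its circle while that of Nr1d2 lies nearer to 0.

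Beyond the members, 22 other genes of the clock were listed by role, and 2 of them passed the test (9.09%, against 7.10% of all genes): Nfil3, which was higher, and Gsk3b, which was lower. At an unadjusted p under 0.05 there were 8 of the 22 (27.8% of all genes), by DESeq2 3 (11.1%) and by limma-voom 2 (6.61%). The log2 fold changes of the 22 lay between -0.36 and 0.75, the median was -0.03, and in 10 of the 22 the groups did not overlap (45.5%, against 34.9% of all genes).

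Nfil3 (E4BP4), the bZIP repressor that binds the same D-box as DBP and TEF, stood at 7.11, 6.47 and 6.68 CPM in wild-type and at 13.6, 9.96 and 10.5 CPM in transgenic mice. All transgenic mice lay above the wild-type mice, the first farthest. Nfil3 rose by 68.0%, from 6.75 ± 0.325 to 11.3 ± 1.97 CPM (log2 fold change 0.75, SE 0.13, edgeR's adjusted p = 0.0264). Its transcript has a GC content of 54.5%, and with GC offsets the log2 fold change was 0.69 (adjusted p = 0.0434). The call was lost without wild-type mouse 1 or 2 (adjusted p = 0.115 for each) and without transgenic mouse 3 (adjusted p = 0.0756). Hlf, the relative of Dbp and Tef, did not pass (log2 fold change -0.19, edgeR's adjusted p = 0.296). It was -0.30 without transgenic mouse 1, -0.11 without transgenic mouse 2 and -0.10 with GC offsets.

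Gsk3b, a kinase that phosphorylates several clock proteins and acts in many other pathways, was at 217.6, 210.6 and 201.1 CPM in wild-type and at 170.0, 177.4 and 173.3 CPM in transgenic mice. The groups lay apart with little spread in each. Gsk3b fell by 17.3% (log2 fold change -0.27, SE 0.0461, edgeR's adjusted p = 0.0254). Its transcript has a GC content of 46.1%. With GC offsets the log2 fold change was -0.19 and with gene length offsets -0.17, with adjusted p-values of 0.0761 and 0.0767. Leaving out wild-type mouse 1 or 2 gave adjusted p-values of 0.127 and 0.122, and transgenic mouse 2 or 3 of 0.0772 and 0.0967.

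None of the partners of ARNTL and PER passed the test. Clock had a log2 fold change of -0.15 (edgeR, adjusted p = 0.0935), which was 0.01 with GC offsets, Npas2 of 0.05 (adjusted p = 0.712), Cry1 of 0.09 (adjusted p = 0.674) and Cry2 of -0.01 (adjusted p = 0.942). Among the ROR receptors, which activate Arntl through the element that NR1D1 and NR1D2 occupy, Rora was closest to the threshold. Its level was 50.0, 45.7 and 49.1 CPM in wild-type and 34.5, 40.6 and 41.7 CPM in transgenic mice, without overlap (log2 fold change -0.31, edgeR's adjusted p = 0.0582, DESeq2's 0.0134). Rora is poor in GC (40.9%), and with GC offsets the value was -0.15 (adjusted p = 0.158). Rorb, with a log2 fold change of 0.11, did not pass (edgeR, adjusted p = 0.629). It was 0.03 without wild-type mouse 1, 0.24 without wild-type mouse 3 and 0.25 with GC offsets. Among output genes Usp2, a deubiquitinase gene that cycles in phase with the Per genes, had a log2 fold change of -0.23 (adjusted p = 0.0827), with 60.8, 70.8 and 64.2 CPM in wild-type and 54.8, 53.5 and 58.9 CPM in transgenic mice. The log2 fold change of Usp2 was -0.15 without wild-type mouse 2, -0.17 without transgenic mouse 2 and -0.27 with GC offsets.

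The mRNAs of the Per genes and of Arntl peak at opposite times of the day, and the genes were also listed by the phase they are known for. Of 11 genes that peak with the Per genes, 2 (Dbp and Nr1d2) passed the test as lower (18.2%, against 7.10% of all genes), 9 had a negative log2 fold change and the median was -0.17. This list is the members without Arntl, with Hlf and Usp2 added, so its 2 calls are those already given. With GC offsets 1 of the 11 passed (2.12% of all genes), and in 36.4% the groups did not overlap (34.9% of all genes). Of 5 genes that peak with Arntl, 1 (Nfil3) passed as higher, 4 were positive and the median was 0.09. That is 20.0%, against 7.10% of all genes, and in so short a list it rests on 1 gene. Over all genes tested the median was -0.01. Tef, of the first list, had all transgenic values above the wild-type values. No phase can be read from these levels, since the time of collection is not given.

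The members also varied among mice of one genotype. The SD of log2 CPM within genotypes was set against that of all 11191 genes with a mean log2 CPM above 3, whose median was 0.079. For Ciart the SD was 0.292, higher than in 96.7% of these genes, for Per2 0.272 (96.1%) and for Bhlhe41 0.27 (96.0%). Per1 (0.178), Arntl (0.178), Nr1d1 (0.16), Dbp (0.149) and Per3 (0.132) lay above 80.0% to 89.5% of genes. Nr1d2 with 0.0964 exceeded 63.8%, and Tef with 0.0573 only 28.6%. Ciart, Per2, Bhlhe41, Per1, Arntl and Nr1d1 varied more between mice of one genotype than either gene that passed the test.

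The spread was shared by several members, a pattern that was noticed after the values were seen. The first transgenic mouse held the highest transgenic level for 8 of the 10 members, against 39.1% of all genes, and the second the lowest for 7 (31.4% of all genes). The first also held the lowest for 2, Nr1d2 and Bhlhe41 (40.9% of all genes). Such deviations ran through 11191 genes as well, where wild-type mouse 3 had an r of -0.588 with transgenic mouse 1 and 0.536 with transgenic mouse 2. In the wild-type, the second mouse held the highest level for 7 members (30.9% of all genes) and the third the lowest for 7 (39.4%). The log2 level of the first transgenic mouse exceeded the mean of the other two by 0.61 for Per2, 0.39 for Per1, 0.38 for Nr1d1, 0.37 for Arntl and 0.35 for Ciart. It was below them for Bhlhe41 (-0.56) and Nr1d2 (-0.13). For Per2 and Bhlhe41 this distance of 1 mouse from the others of its genotype was larger than the log2 fold change of -0.50 between genotypes for Dbp.

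**Figure D3:**
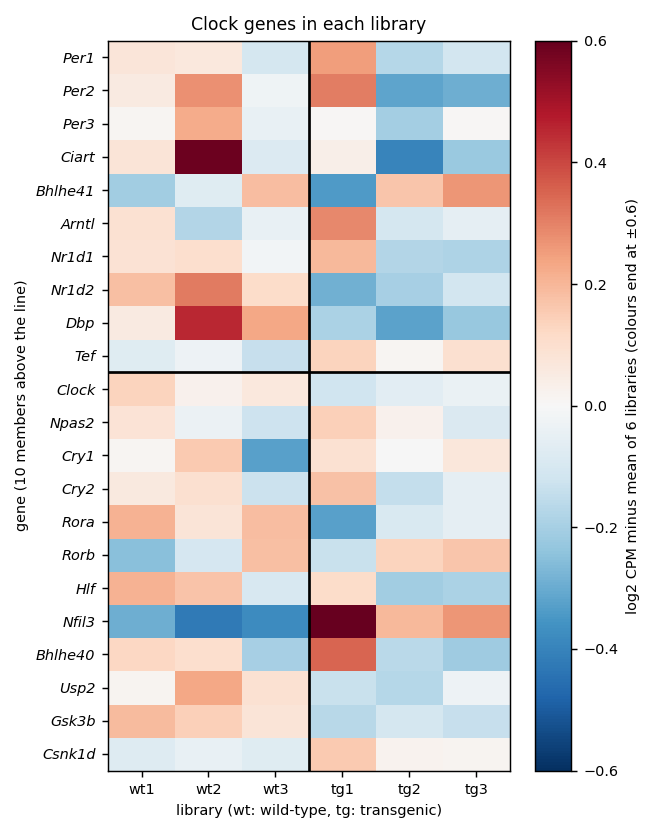
Rows are the 10 members and, under the line, 12 other clock genes, columns are the 6 libraries, and the colour gives log2 CPM minus the mean of the 6 libraries, with colours ending at 0.6 in either direction. Dbp, Nr1d2, Gsk3b, Clock, Rora and Usp2 are red in all wild-type and blue in all transgenic columns, in places faintly (0.05 for Dbp in wt1). Nfil3, Tef and Csnk1d are the reverse, while Per1, Per2, Nr1d1 and Arntl are reddest in the first transgenic mouse.

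How closely other genes followed Dbp was described by Pearson's r of the deviations of log2 CPM from the genotype means, over the 6 libraries, among genes with a mean log2 CPM above 3. The 5 genes most like it were Mrpl2 (0.997), Fam53a (0.993), Dync2li1 (0.991), Tmem234 (0.988) and Serpinb1a (0.987), none of which is listed here as a clock gene. Of the members, Ciart (0.777, rank 384) and Per3 (0.763, rank 431) were nearest to Dbp. Tef (0.511), Per2 (0.506), Nr1d2 (0.436), Nr1d1 (0.259) and Per1 (0.241) followed, and Bhlhe41 (-0.03) and Arntl (-0.29) came last. These are correlations over 6 libraries that share their scaling, ranked among 11190 genes, and are given as a description only.

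Glucocorticoids, neuronal activity and body temperature are inputs to the clock of peripheral tissues and forebrain, and genes that answer to each were counted. Of 12 genes induced by glucocorticoids, 2 passed the test (16.7%, against 7.10% of all genes), both lower, and the median log2 fold change was -0.22. Klf9, a Krüppel-like factor that also has a daily rhythm, fell from 155.6 ± 8.71 to 116.3 ± 9.04 CPM (log2 fold change -0.42, SE 0.0683, adjusted p = 0.0228). Tsc22d3 (GILZ) fell from 59.0 ± 5.48 to 45.5 ± 2.76 CPM (log2 fold change -0.37, SE 0.0786, adjusted p = 0.0381). With GC offsets 0 of the 12 passed edgeR's test (2.12% of all genes). Without offsets, 4 were at an unadjusted p under 0.05 (27.8% of all genes), and 3 passed by DESeq2 (11.1%) and 2 by limma-voom (6.61%).

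Of 16 immediate early genes, which neuronal firing and light induce, 0 passed edgeR's test (7.10% of all genes), with 1 at an unadjusted p under 0.05 (27.8%) and 0 by DESeq2 (11.1%) and by limma-voom (6.61%). Their median log2 fold change was 0.18, and 15 of the 16 were positive. The groups overlapped for all 16, while 34.9% of all genes had no overlap. Of 9 genes that follow temperature, 0 passed edgeR's test, with 4 at an unadjusted p under 0.05 (27.8% of all genes), 2 by DESeq2 (11.1%) and 0 by limma-voom (6.61%). The list mixes genes that cold induces with heat shock genes. The cold-induced Cirbp and Rbm3 had log2 fold changes of -0.25 and -0.11 and the heat shock gene Hsp90aa1 of -0.11, while the other 6 heat shock genes had values from 0.20 (Hspa8) to 0.33 (Dnajb1).

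**Figure D4:**
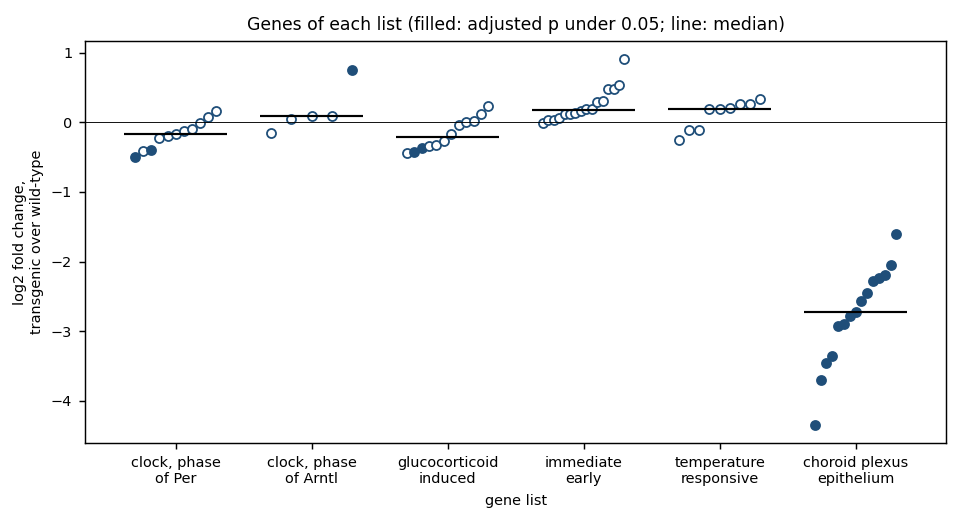
Each circle is 1 gene, placed by its log2 fold change, transgenic over wild-type (y axis), in the list named on the x axis, filled where edgeR's adjusted p was under 0.05, and the line is the median of the list. The clock, glucocorticoid, immediate early and temperature genes lie within 1 of 0, with medians from -0.22 to 0.20, while all 15 choroid plexus genes are filled with a median of -2.73.

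The markers of other cell types were summed in each library, since cell types differ in their clock gene levels. Besides the choroid plexus list, 1 of 7 endothelial and mural markers passed (Cldn5, log2 fold change 0.66, edgeR's adjusted p = 0.043), a call that was lost with GC offsets, with sums of 253.9 to 317.3 CPM in wild-type and 249.0 to 359.9 CPM in transgenic libraries. None of 5 thalamic, 6 meningeal, 4 astrocyte, 4 oligodendrocyte or 4 microglial markers passed edgeR's test, with 1, 1, 0, 0 and 1 at an unadjusted p under 0.05 and 0 by DESeq2 and limma-voom. Over all genes these shares were 7.10%, 27.8%, 11.1% and 6.61%. The thalamic sums were 69.4 to 132.6 and 61.4 to 79.5 CPM and the meningeal sums 159.2 to 237.6 and 109.6 to 315.8 CPM in wild-type and transgenic libraries. No marker of these lists was at 0 in all libraries of a genotype. The part of these cells in the levels of Dbp and Nr1d2 was not tested.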

How the data were processed

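Total RNA of 3 wild-type and 3 transgenic hippocampi was sequenced. The authors trimmed reads with Trimmomatic, aligned them to mm10 with STAR and deposited counts, whole numbers of fragments per gene (featureCounts 1.5.0-p1, strand setting 2, mapping quality of at least 3, Ensembl 95 annotation), with gene lengths in bp. The labels assigned libraries to genotypes, and 54723 of 54838 identifiers had a symbol in the GENCODE M21 annotation.

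The members and all lists of genes were chosen with earlier results of these data known. The text names the members, other clock genes by role, up to 4 genes of each list with an adjusted p under 0.05 (smallest p first), hippocampal markers, the 5 genes most like Dbp, Orai1 and Thy1, except 1 gene that is not reported here. Single temperature genes were named after their values were seen. The fit ran on all genes: filterByExpr (minimum count 10), TMM, edgeR's quasi-likelihood test on genotype, Benjamini-Hochberg adjustment over 19087 genes, threshold 0.05. SE and 95% intervals came from this fit. CPM and FPKM were computed here from counts. GC and length offsets were loess curves (span 0.5) of log2 counts in each library. The alternatives included DESeq2, limma-voom, other scalings and filters, and leaving out each mouse. The study's NOISeq test was not repeated. Replicates are separate mice. The fits were checked on simulated counts with 200 changed genes. R 4.3.3, edgeR 4.0.16, limma 3.58.1, DESeq2 1.42.0, Python 3.11.15, numpy 2.4.6, pandas 2.3.3, scipy 1.17.1 and matplotlib 3.10.9 were used. Libraries held 37414241 to 52497799 counts, and the smallest two-sided p of an exact permutation test of 1 value (3 mice against 3) is 0.1.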

Additional observations from a re-analysis of the deposited data

How the results depend on the processing

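Dbp, Nr1d2, Nfil3 and Gsk3b kept their direction in all 17 alternatives, and other scalings, other filters, DESeq2 and limma-voom kept their calls. The count of members with an adjusted p under 0.05 was 1 (Dbp) in place of 2 with GC offsets, with or without the replicate block, and 0 to 4 when 1 mouse was left out. The 4 were Dbp, Nr1d2, Per2 and Nr1d1, without the first transgenic mouse, in a fit that called 1149 of 19382 genes. The count was 0 without wild-type mouse 1 or 2, where 77 of 19289 and 94 of 19301 genes were called. It was also 0 without transgenic mouse 2 or 3, where 192 of 19623 and 108 of 19559 genes were called. The count for the other clock genes was 1 in place of 2 with GC offsets, with GC offsets and the block, and with length offsets, and 0 to 2 when 1 mouse was left out. Leaving out a mouse left 77 (without wild-type mouse 1) to 1149 genes called of all tested, GC offsets 405, length offsets 770, the block 738 and DESeq2 2122, against 1355. The cause of these differences was not tested. Of the same-numbered mice, pairs 1 and 3 deviated together and pair 2 did not (r = 0.399, 0.388 and -0.357), and different-numbered pairs reached 0.4 and 0.536, so the numbers were not taken as a pairing. The replicate block gave adjusted p-values of 0.0484 for Dbp, 0.0363 for Nr1d2, 0.0248 for Nfil3 and 0.045 for Gsk3b, and 2 calls among the members and 2 among the other clock genes.

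The sign turned only for genes that did not pass. Per1 was 0.0005 with DESeq2's size factors, 0.0032 without a filter, 0.0048 with at least 10 counts in every library, 0.0002 by DESeq2 and 0.035 with length offsets. Bhlhe40 was 0.0081, 0.0108, 0.0125, 0.0077 and 0.0273 under the same 5, 0.0212 with GC offsets and 0.0056 with GC offsets and the block. Clock was 0.0129 with GC offsets and 0.0127 with the block added, and Cry2 0.0423 with length offsets. When 1 mouse was left out, log2 fold changes ran from -0.15 to 0.097 for Per1, -0.042 to 0.19 for Arntl, -0.025 to 0.24 for Bhlhe41, -0.0079 to 0.13 for Npas2, -0.026 to 0.22 for Cry1, -0.11 to 0.077 for Cry2 and -0.21 to 0.12 for Bhlhe40. The cause was not tested.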
